A study of Rattus norvegicus with 12 samples.

Results

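Potassium channel genes were taken as all protein-coding genes of the deposited rat table whose name begins with Kcn, which gave 91 of 19988 protein-coding genes and of 30560 genes in all. They encode voltage-gated, inwardly rectifying, tandem-pore and calcium- or sodium-activated channels and the auxiliary subunits that ride on them. RNA came from the retinas of 12 rats, 1 library each: 6 rats received 2 µL of PBS in the vitreous (PBS 1 to PBS 6) and 6 received 2 µL of 20 mM NMDA (NMDA 1 to NMDA 6). NMDA activates the glutamate receptors named after it, and an excess of it in the eye is toxic to retinal neurons that carry them. The sources used here give no strain, sex, age or time to collection, and do not say whether eyes were pooled.

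Potassium channels let potassium leave the cell and pull its voltage back towards rest. Voltage-gated (Kv) channels end action potentials and set firing rates, inward rectifiers (Kir) and tandem-pore (K2P) channels hold the resting voltage, and calcium-activated channels tie the outflow to calcium entry. In the retina, a Kv2 current shapes the dark voltage of photoreceptors, Kv1 and Kv3 channels serve amacrine and ganglion cells, Kir4.1 of Müller glia clears potassium released by neurons, and Kir7.1 serves the pigment epithelium. Microglia and white blood cells carry potassium channels too.

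Total counts ran from 16415611 to 34022023 per library. The first principal component (44.7% of the variance) separated the treatments without overlap, and on the second (15.7%) the extremes were NMDA 1 and NMDA 3. The label retina was borne out by the markers, with 15 of 15 rod markers measured at 43153 to 63922 CPM in sum. Lens markers were present too, at 599 to 3133 CPM in sum with PBS and 76.0 to 3322 CPM with NMDA. Of 18 ganglion cell markers 16 had lower and 1 had higher levels with NMDA, and of 15 microglia and macrophage markers 12 had higher and 1 lower (edgeR, adjusted p under 0.05). In whole retina, fewer cells of a type and less RNA per cell cannot be told apart.

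After NMDA most measured potassium channel genes were lower, and a handful were higher. Of 91 members, 79 had enough counts to be tested, and 44 of them fell and 5 rose (edgeR quasi-likelihood test, Benjamini-Hochberg adjusted p under 0.05). Over all 16260 genes tested, 17.5% were lower and 20.4% were higher by the same rule, against 55.7% and 6.33% of the tested members. Taking both directions, 37.9% of all genes and 62.0% of tested members passed. The median log2 fold change (NMDA minus PBS) was -0.43 over the tested members and 0.01 over all tested genes. Falls were mostly modest. Of the 44, only 7 reached 2-fold (Kcnk15, Kcnip2, Kcnk4, Kcnf1, Kcne5, Kcns2 and Kcnk2), which is 8.86% of the tested members against 1.48% of all genes, and the median fall was -0.63 on the log2 scale. Of the 5 rises, 4 reached 2-fold (Kcnn4, Kcng4, Kcnk6 and Kcnk13), which is 5.06% of the tested members, near the 4.58% of all genes, and Kcnv2 rose by less.

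The highest NMDA library lay below the lowest PBS library in 29 of the 79 tested members, where 8.66% of all tested genes did so. The lowest NMDA library lay above the highest PBS library in 4 members, where 9.43% of all genes did. The 12 members not tested had 0 to 125 counts over all libraries, the most in Kcnj15. With scaling by library size alone, 5 members rose and 39 fell. The split over all genes was then 4233 higher and 2323 lower, against 3315 and 2852 with TMM factors. Without NMDA 1 and NMDA 3 together, 6 members rose and 46 fell, of which 5 and 43 were among those called with all libraries.

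**Figure D1:**
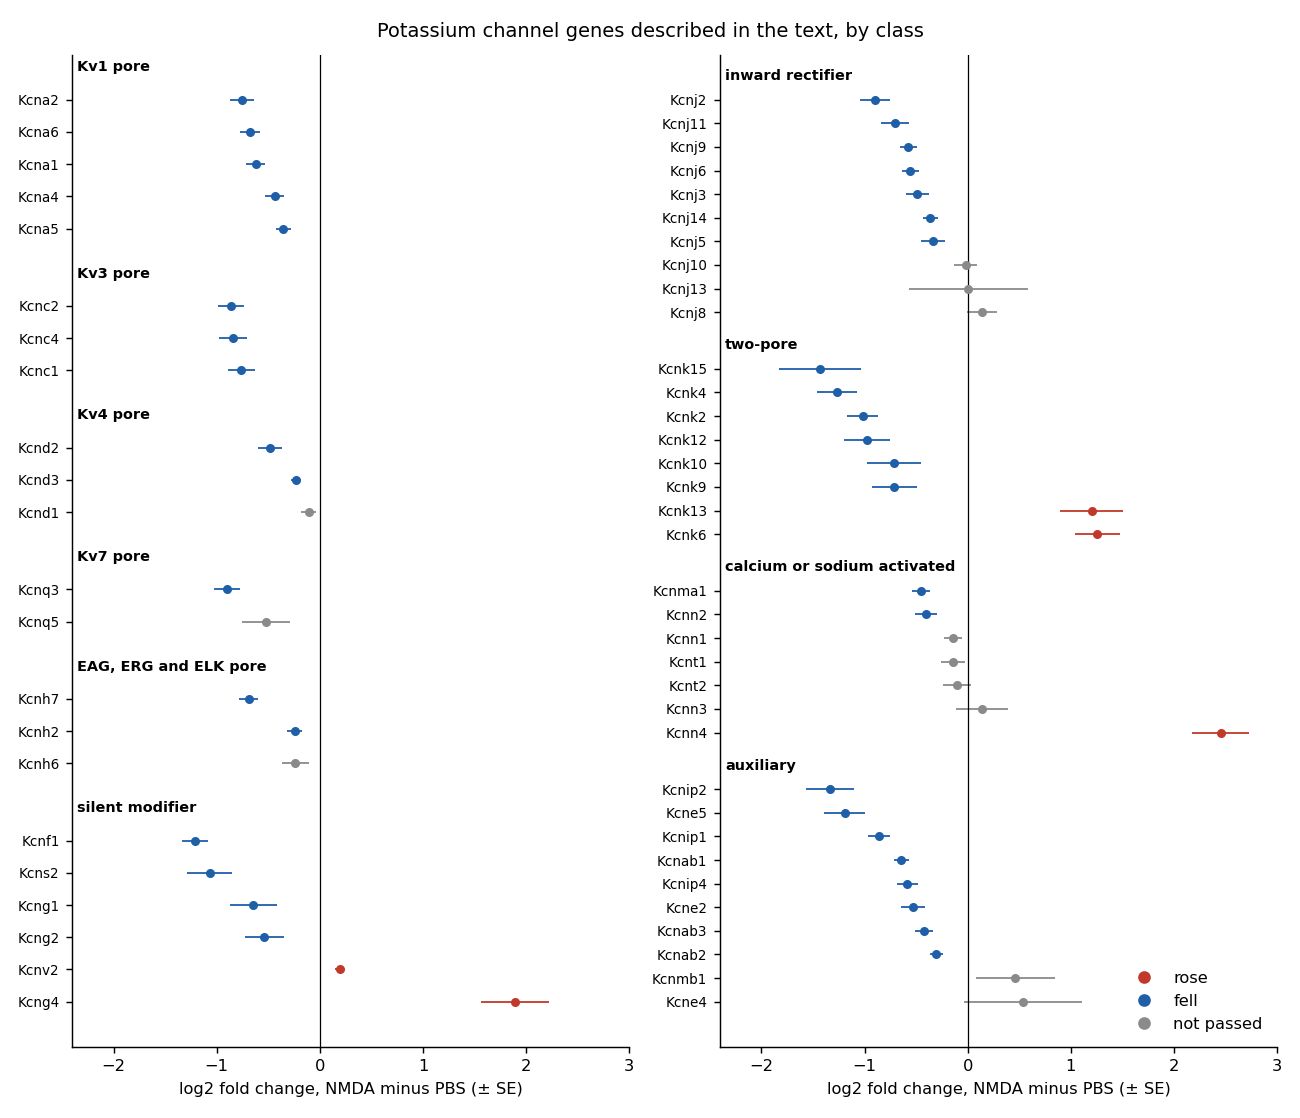
Log2 fold change (NMDA minus PBS, x axis) with its SE for tested members described in the text, arranged by channel class; blue points fell, red points rose and grey points did not pass an adjusted p of 0.05 (edgeR). The Kv1 genes shown all lie left of 0, and 4 of the 5 red points lie right of 1.

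Levels of different genes can be compared only per length, so FPKM was used for that purpose. With PBS, 10 genes held 64.4% of the family's summed FPKM. Kcnj14, which encodes the inward rectifier Kir2.4, was highest at 149 ± 9.42 FPKM (SD, n = 6). Kcnv2, the Kv8.2 modifier gene, was at 59.9 ± 2.33, and the gap between them was wider than their SD. Kcnh6 (31.4 ± 5.42 FPKM), Kcna5 (28.1 ± 2.18), Kcnab2 (27.6 ± 2.34) and Kcnh2 (25.7 ± 1.88) were lower, and neighbours among these 4 differed by less than the larger of their SDs. With NMDA the mean levels were 120 ± 12.4 FPKM for Kcnj14, 70.8 ± 4.03 for Kcnv2 and 27.5 ± 4.08 for Kcnh6. The summed FPKM of the family was 773 ± 11.3 with PBS (758 to 790) and 652 ± 23.8 with NMDA (622 to 676), so the groups did not overlap. The table's span of Kcnj14 (chromosome 1, 96293435 to 96495459) covers 8 other protein-coding genes, among them Grin2d and Kdelr1, and its level may include reads from them.

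**Figure D2:**
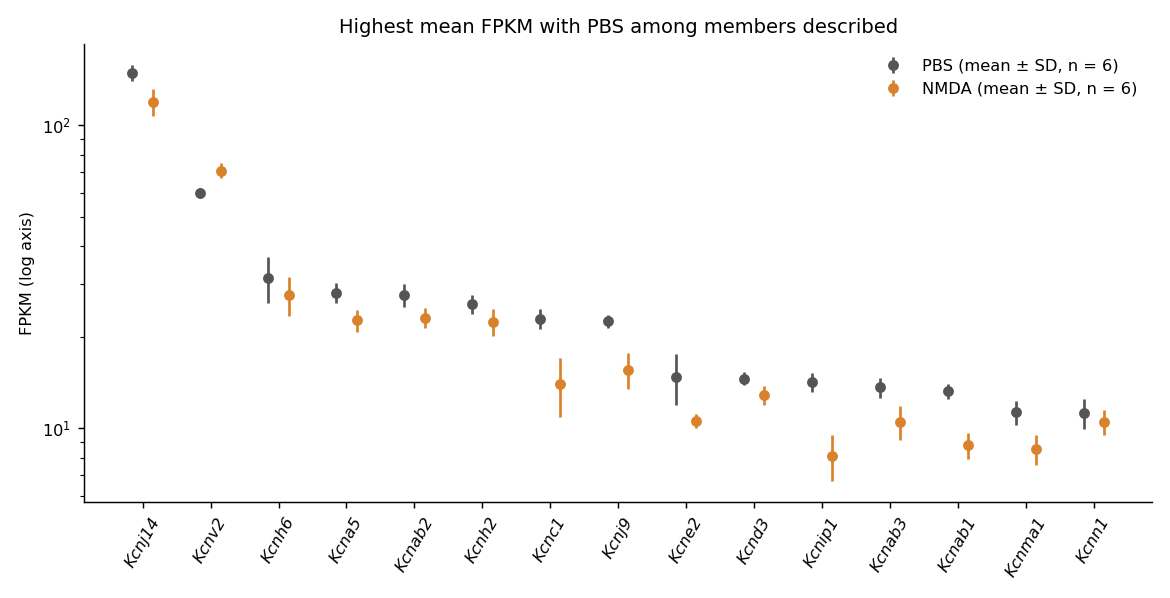
Mean FPKM with SD (n = 6, log axis) of the 15 members with the highest PBS mean among those described in the text, for PBS (grey) and NMDA (orange). Kcnj14 and Kcnv2 stand above the others shown in both groups, Kcnj14 lower and Kcnv2 higher with NMDA.

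Kv1 channels, which sit along axons and near their first segment and limit repetitive firing, were lower throughout. All 6 tested pore genes fell, by 0.34 to 0.75 on the log2 scale, and in 5 of them no NMDA library reached the PBS range. Over all tested genes 17.5% fell, and 8.66% had every NMDA library below every PBS library. Kcna2, the Kv1.2 gene (ENSRNOG00000018285, chromosome 2, 194704639 to 194718400), had a lowest, median and highest level of 113, 136 and 144 CPM with PBS. With NMDA these were 66.4, 72.2 and 102 CPM, all below the PBS range. Its log2 fold change was -0.75 ± 0.11 (SE; edgeR adjusted p = 0.000338). Kcna6 and Kcna1, the Kv1.6 and Kv1.1 genes, fell by 0.68 and 0.62 (edgeR adjusted p = 0.000208 and 0.000229). Kcna5, the Kv1.5 gene and the highest of the class by FPKM though not by CPM, fell by 0.35, from 116 ± 9.06 to 90.6 ± 8.64 CPM. In Kcna4, the exception to the separation, NMDA 1 (12.7 CPM) lay within the PBS range of 11.9 to 14.5.

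The beta subunits that bind Kv1 pores inside the cell moved the same way. All 3 genes fell, and the groups did not overlap in any of them. Kcnab1 went from a PBS range of 51.5 to 61.2 CPM, with a median of 58.8, to an NMDA range of 32.8 to 42.2 with a median of 35.3. The change of Kcnab1 was -0.64 ± 0.07 (SE; edgeR adjusted p = 5.15e-05). Kcnab3 and Kcnab2 fell by 0.43 and 0.30.

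The silent modifiers (Kcnf, Kcng, Kcns and Kcnv genes) make no channel of their own and alter Kv2 pores by joining them. Of 10 tested, 4 fell, 2 rose and 4 did not pass, where 17.5% of all tested genes fell and 20.4% rose. The class held falls past 2-fold as well as a rise past 2-fold. Kcnf1, the Kv5.1 gene (ENSRNOG00000024310, chromosome 6, 39962307 to 39964979), went from 5.48, 6.69 and 8.16 CPM to 2.41, 2.78 and 3.46 CPM (lowest, median and highest). No NMDA library came near the lowest PBS library, and the change was -1.21 ± 0.13 (SE; edgeR adjusted p = 4.05e-05). Kcns2, the Kv9.2 gene, went from 6.05, 6.43 and 7.97 CPM to 1.99, 2.90 and 5.10 CPM, again without overlap (-1.07 ± 0.22). Kcng1 and Kcng2, picked with their values in view, fell by 0.65 and 0.54. Both had adjusted p-values near the threshold (0.0419 and 0.0369) and lost their call without either PBS 1, PBS 2 or PBS 4, for example.

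Kcng4, the Kv6.4 gene (ENSRNOG00000015746, chromosome 19, 47677327 to 47689268), rose. It had 7.05, 14.5 and 21.8 CPM as lowest, median and highest level with PBS and 30.5, 42.5 and 89.1 with NMDA. NMDA 5 (80.6 CPM) and NMDA 6 (89.1 CPM) were the highest, and every NMDA library lay above every PBS library. The log2 fold change was 1.89 ± 0.33 (SE; edgeR adjusted p = 0.00099), a 3.71-fold rise.

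Kcnv2, the Kv8.2 gene of rods and cones (ENSRNOG00000012566, chromosome 1, 224999552 to 225014062), rose slightly and evenly. Its levels were 299, 322 and 329 CPM with PBS and 339, 363 and 386 CPM with NMDA, without overlap. The log2 fold change was 0.19 ± 0.04 (SE; edgeR adjusted p = 0.00411). Of 15 rod markers 11 fell and none rose, with a median log2 fold change of -0.38, and of 10 tested cone markers 5 fell and none rose (median -0.25).

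Upstream sequence could be shown for 56 of the 91 members, from RefSeq (GRCr8, 250 bases before the annotated start). Kcng4 and Kcnv2 are shown because they rose, and Kcnk4 and Kcnj9 because they fell and carry the same short motif as Kcng4. Capitals mark TAATCC, the core of the site bound by the photoreceptor factors CRX and OTX2, read on either strand, and in Kcnk4 also TTCNNNGAA, a STAT site. Kcnv2 has no match to any motif searched.
Kcng4 (chr19:64597889-64598138, minus strand): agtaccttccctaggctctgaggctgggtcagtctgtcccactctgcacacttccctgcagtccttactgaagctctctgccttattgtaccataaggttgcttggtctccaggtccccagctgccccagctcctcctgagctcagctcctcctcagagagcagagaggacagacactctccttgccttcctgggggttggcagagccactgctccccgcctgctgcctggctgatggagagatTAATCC
Kcnv2 (chr1:234412924-234413173, plus strand): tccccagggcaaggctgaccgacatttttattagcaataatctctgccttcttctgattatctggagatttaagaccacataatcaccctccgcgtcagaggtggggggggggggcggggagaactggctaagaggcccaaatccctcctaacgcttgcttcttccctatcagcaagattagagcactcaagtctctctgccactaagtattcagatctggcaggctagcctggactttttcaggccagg
Kcnk4 (chr1:213555862-213556111, minus strand): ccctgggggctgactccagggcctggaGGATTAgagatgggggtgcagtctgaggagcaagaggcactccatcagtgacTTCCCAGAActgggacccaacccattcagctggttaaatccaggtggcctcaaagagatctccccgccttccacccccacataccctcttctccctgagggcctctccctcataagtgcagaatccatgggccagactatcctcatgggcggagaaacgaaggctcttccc
Kcnj9 (chr13:87320294-87320543, minus strand): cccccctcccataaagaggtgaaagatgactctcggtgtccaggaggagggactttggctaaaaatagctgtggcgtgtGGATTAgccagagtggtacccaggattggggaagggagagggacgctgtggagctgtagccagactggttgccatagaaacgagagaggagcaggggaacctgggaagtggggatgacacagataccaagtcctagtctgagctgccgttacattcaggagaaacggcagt

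TAATCC stands 6 bases before the start in Kcng4, 223 in Kcnk4 and 171 in Kcnj9, so it was found upstream of genes that moved in opposite directions. It occurred in 1 of 3 rising and 2 of 26 falling members with a sequence, and in 6.34% of 33469 promoter windows of the same length. The STAT site TTCNNNGAA was found in 3 of the 26 (7.67% of all windows), and GAGGAAGT, a PU.1 site, in 3 (2.04%). TGANTCA, the AP-1 site, and TGACGTCA, the cyclic AMP response element, were in none of the 29 rising or falling members with a sequence (6.34% and 1.59% of all windows). The median share of G and C bases was 58.4% in rising members, 64.6% in falling members and 51.2% over all windows. The motif rates were not adjusted for this difference in base content. No motif searched overlapped another in the 4 sequences shown.

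Kv3 channels switch fast enough to allow high firing rates, and 3 of their genes fell by similar amounts. Of all tested genes 17.5% fell. Kcnc1, the Kv3.1 gene (ENSRNOG00000055401, chromosome 1, 96902953 to 96944744), had 81.2, 94.3 and 103 CPM with PBS and 43.5, 49.0 and 71.6 CPM with NMDA. The groups did not overlap, and the change was -0.76 ± 0.13 (SE; edgeR adjusted p = 0.000725). Kcnc2, the Kv3.2 gene, fell by 0.86, from 35.9 ± 2.40 to 19.7 ± 4.50 CPM. Kcnc4, the Kv3.4 gene, fell by 0.84, from 60.7 ± 6.41 to 33.9 ± 7.45 CPM.

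Kv4 channels carry the transient A-type current of dendrites and depend on KChIP calcium sensors (Kcnip genes) at the membrane. Of 3 pore genes 2 fell, with Kcnd2 at -0.48 ± 0.12 and Kcnd3 at -0.23 ± 0.05 (SE; edgeR adjusted p = 0.00631 and 0.00329), and Kcnd1 did not pass. The share that fell over all tested genes was 17.5%. The 4 KChIP genes all fell, and Kcnip2, Kcnip1 and Kcnip4 had larger fitted falls than any Kv4 pore gene, a difference that was not tested. Kcnip2 (ENSRNOG00000018018, chromosome 1, 244641150 to 244664874) had 19.0, 22.2 and 24.9 CPM with PBS and 5.04, 7.79 and 13.6 CPM with NMDA. No library of the groups overlapped, NMDA 1 and NMDA 3 were nearest to PBS, and the change was -1.33 ± 0.23 (SE; edgeR adjusted p = 0.000904). Kcnip1 went from 34.5 ± 2.44 to 19.0 ± 3.49 CPM (-0.86 ± 0.11) and Kcnip4 from 22.9 ± 2.12 to 15.3 ± 2.40 CPM (-0.58 ± 0.10), both without overlap. The table's span of Kcnip1 overlaps Kcnmb1, a gene with under 1 CPM in every library, and AABR07029262.1, with 3 counts in all.

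Of the other auxiliary subunits, Kcne5 (ENSRNOG00000019176, chromosome X, 105930398 to 105931013), of a family of small single-pass proteins that slow or quieten Kv pores, had 2.50, 3.12 and 3.81 CPM with PBS. It had 0.798, 1.26 and 1.80 CPM with NMDA, all below PBS (-1.19 ± 0.20; edgeR adjusted p = 0.000584). Kcne2, chosen after its values were seen, went from 94.9 ± 18.8 to 65.8 ± 4.09 CPM (-0.53 ± 0.11; edgeR adjusted p = 0.00286). Its span overlaps Mrps6 and Slc5a3, from which reads may come. None of the 3 tested beta subunit genes of the large-conductance calcium-activated (BK) channel passed with edgeR and all libraries, and neither did Kcne4. The nearest, Kcnmb4, was at -0.56 ± 0.23 (SE; edgeR adjusted p = 0.0774), and it passed as a fall with DESeq2, with limma voom, and with edgeR without NMDA 1, without NMDA 3 or without both.

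Kv7 channels carry the slow M-current that restrains excitability, and 1 of their 3 tested genes fell. Kcnq3, the Kv7.3 gene (ENSRNOG00000005206, chromosome 7, 97730465 to 98025653), had 8.64, 9.41 and 10.6 CPM with PBS and 3.95, 4.84 and 6.62 CPM with NMDA, without overlap. The change was -0.90 ± 0.13 (SE; edgeR adjusted p = 0.000217). Kcnq5 did not pass (-0.52, edgeR adjusted p = 0.0928). Of 7 tested Kcnh genes, which encode the EAG, ERG and ELK channels, 2 fell, where 17.5% of all tested genes fell. Kcnh7, the ERG3 gene, fell by 0.69 from 9.01 ± 0.959 to 5.57 ± 0.451 CPM, and Kcnh2, the ERG1 gene, by 0.24 from 124 ± 9.21 to 104 ± 11.2 CPM. Kcnh6, the ERG2 gene, had the highest FPKM of the class and did not pass (-0.24 ± 0.13, edgeR adjusted p = 0.174). PBS 5 was its lowest PBS library at 85.0 CPM, and without PBS 5 the change was -0.32 and passed (adjusted p = 0.0349).

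Inward rectifiers split into those that fell and those without a detected change. Of 13 tested, 7 fell, none rose and 6 did not pass, where 17.5% of all tested genes fell and 20.4% rose. Kcnj2, the Kir2.1 gene (ENSRNOG00000064933, chromosome 10, 96060821 to 96071445), had 9.33, 10.7 and 11.9 CPM with PBS and 4.0, 5.28 and 7.61 CPM with NMDA. The groups did not overlap and the change was -0.90 ± 0.14 (SE; edgeR adjusted p = 0.000477). Kcnj14 fell by 0.36, from 415 ± 25.0 to 323 ± 36.6 CPM. The G protein-activated (GIRK) genes Kcnj9 and Kcnj6, which lower excitability on transmitter signals, fell by 0.58 and 0.56 (edgeR adjusted p = 0.00027 and 0.00026), each without overlap. Kcnj3 and Kcnj5, the other GIRK genes, picked with their values in view, fell by 0.49 and 0.33, the latter near the threshold (edgeR adjusted p = 0.0405). Kcnj11, the pore gene of the ATP-sensitive channel, also chosen after its values were seen, fell by 0.71, and its vascular counterpart Kcnj8 did not pass (0.13 ± 0.14).

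Kcnj10, the Kir4.1 gene of Müller glia (ENSRNOG00000068444, chromosome 13, 84802009 to 84835461), showed no detected change. Its lowest, median and highest levels were 90.4, 109 and 120 CPM with PBS and 83.2, 102 and 141 CPM with NMDA, and the groups overlapped. The log2 fold change was -0.02 ± 0.11, with an approximate 95% interval from -0.24 to 0.20 (edgeR adjusted p = 0.912). Of 14 Müller glia markers 8 fell and 4 rose, with a median of -0.61. The 4 with the smallest adjusted p were Car2, a carbonic anhydrase gene, at -0.78, Vim, the vimentin gene, at 1.46, Rlbp1, a retinoid-binding protein gene, at -1.14 and Dkk3 at -0.71. Over the list the falls ran from -1.30 to -0.48 and the rises from 0.23 to 1.46. The part of Müller glia in the level of Kcnj10 was not tested. Of 11 genes of the complex that anchors Kir4.1 in glial endfeet, 4 fell and 1 rose. Of all tested genes 17.5% fell and 20.4% rose. Dmd, the dystrophin gene, fell by 0.35, Sntb2, a syntrophin gene, by 0.48 and Aqp4, the aquaporin gene of the endfeet, by 0.48, and Sntb1, another syntrophin gene, rose by 0.35.

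Kcnj13, the Kir7.1 gene of the pigment epithelium (ENSRNOG00000016057, chromosome 9, 88063003 to 88071112), varied more within the NMDA group than between groups. Its PBS levels were 4.65, 7.23 and 13.1 CPM and its NMDA levels 0.537, 6.52 and 22.4 CPM, lowest in NMDA 1 and highest in NMDA 3 (0.01 ± 0.57, edgeR adjusted p = 0.994). Pigment epithelium markers summed to 48.8 CPM in NMDA 1 and 765 CPM in NMDA 3, the extremes of all 12 libraries, and to 174 to 569 CPM with PBS, highest in PBS 5. PBS 5 also had the highest PBS level of Kcnj13. Between groups, 4 of the 11 tested pigment epithelium markers fell and none rose, with a median log2 fold change of -0.01. Those that fell were Rpe65 (-1.67), Rgr (-1.36), Ttr (-1.14) and Lrat (-0.98). The part of this tissue in the result was not tested. The gene lies within the span of Gigyf2.

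Tandem-pore (K2P) channels carry background leak currents. Of 11 tested, 7 fell, 2 rose and 2 did not pass, where 17.5% of all tested genes fell and 20.4% rose. Kcnk4, the TRAAK gene (ENSRNOG00000021140, chromosome 1, 204114572 to 204125925), and Kcnk2, the TREK-1 gene, encode mechanically and lipid-gated channels of neurons. Kcnk4 had 9.60, 11.7 and 13.7 CPM with PBS and 2.57, 4.91 and 6.71 CPM with NMDA (-1.27 ± 0.19; edgeR adjusted p = 0.00033). Kcnk2 had 8.31, 8.93 and 10.6 CPM and then 3.09, 4.40 and 6.02 CPM (-1.02 ± 0.15; edgeR adjusted p = 0.00028). Neither gene had an NMDA library within the PBS range. Kcnk12 fell from 1.74 ± 0.496 to 0.884 ± 0.230 CPM (-0.98 ± 0.22), with NMDA 3 reaching the PBS range. Kcnk15 had the lowest fold change of all members, -1.43 ± 0.40, on only 221 counts over all libraries (edgeR adjusted p = 0.0124). Kcnk9 and Kcnk10, picked with their values in view, both fell by 0.71, and the latter was near the threshold (edgeR adjusted p = 0.046).

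The K2P genes that rose were low. Kcnk6, the TWIK-2 gene, known from macrophages, had 0.274, 0.416 and 0.561 CPM with PBS and 0.744, 0.975 and 1.25 CPM with NMDA. All NMDA libraries were above all PBS libraries, and the log2 fold change was 1.26 ± 0.22 (SE; edgeR adjusted p = 0.000779; 233 counts in all). Kcnk13, the THIK-1 gene, which sets the resting voltage of microglia, had 0.295, 0.414 and 0.508 CPM with PBS and 0.498, 0.865 and 1.55 CPM with NMDA. NMDA 1 lay within its PBS range, and the change was 1.20 ± 0.31 (edgeR adjusted p = 0.00797; 221 counts in all). Both were chosen after their values were seen, since their levels are below the 1 CPM that the rule for named genes asks for.

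Among calcium- and sodium-activated channels, Kcnn4 had the largest rise of all members. It encodes KCa3.1, the intermediate-conductance channel of microglia, T cells and red cells (ENSRNOG00000019440, chromosome 1, 79959322 to 79974340). Its levels were 0.628, 0.910 and 1.42 CPM with PBS and 3.19, 5.22 and 7.51 CPM with NMDA, without overlap. NMDA 5, NMDA 4 and NMDA 6 were highest and NMDA 3 lowest. The log2 fold change was 2.45 ± 0.27 (SE; edgeR adjusted p = 5.78e-05), a 5.47-fold rise. Microglia and macrophage markers summed to 122 to 156 CPM with PBS and 195 to 330 CPM with NMDA, and those of neutrophils and lymphocytes to 2.14 to 7.5 and 9.71 to 56.5 CPM. No marker found for these lists was at 0 in all libraries. The part of these cells in the rises of Kcnn4, Kcnk6 and Kcnk13 was not tested.

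The neuronal members of that class went down or did not pass. Kcnma1, the pore gene of the BK channel (ENSRNOG00000005985, chromosome 15, 302214 to 1001198), had 88.0, 95.2 and 110 CPM with PBS and 59.2, 73.8 and 80.8 CPM with NMDA, without overlap (-0.45 ± 0.08; edgeR adjusted p = 0.00113). Kcnn2, the SK2 gene, chosen after its values were seen, fell by 0.40. Kcnn1, Kcnn3 and the sodium-activated Kcnt1 and Kcnt2 did not pass.

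**Figure D3:**
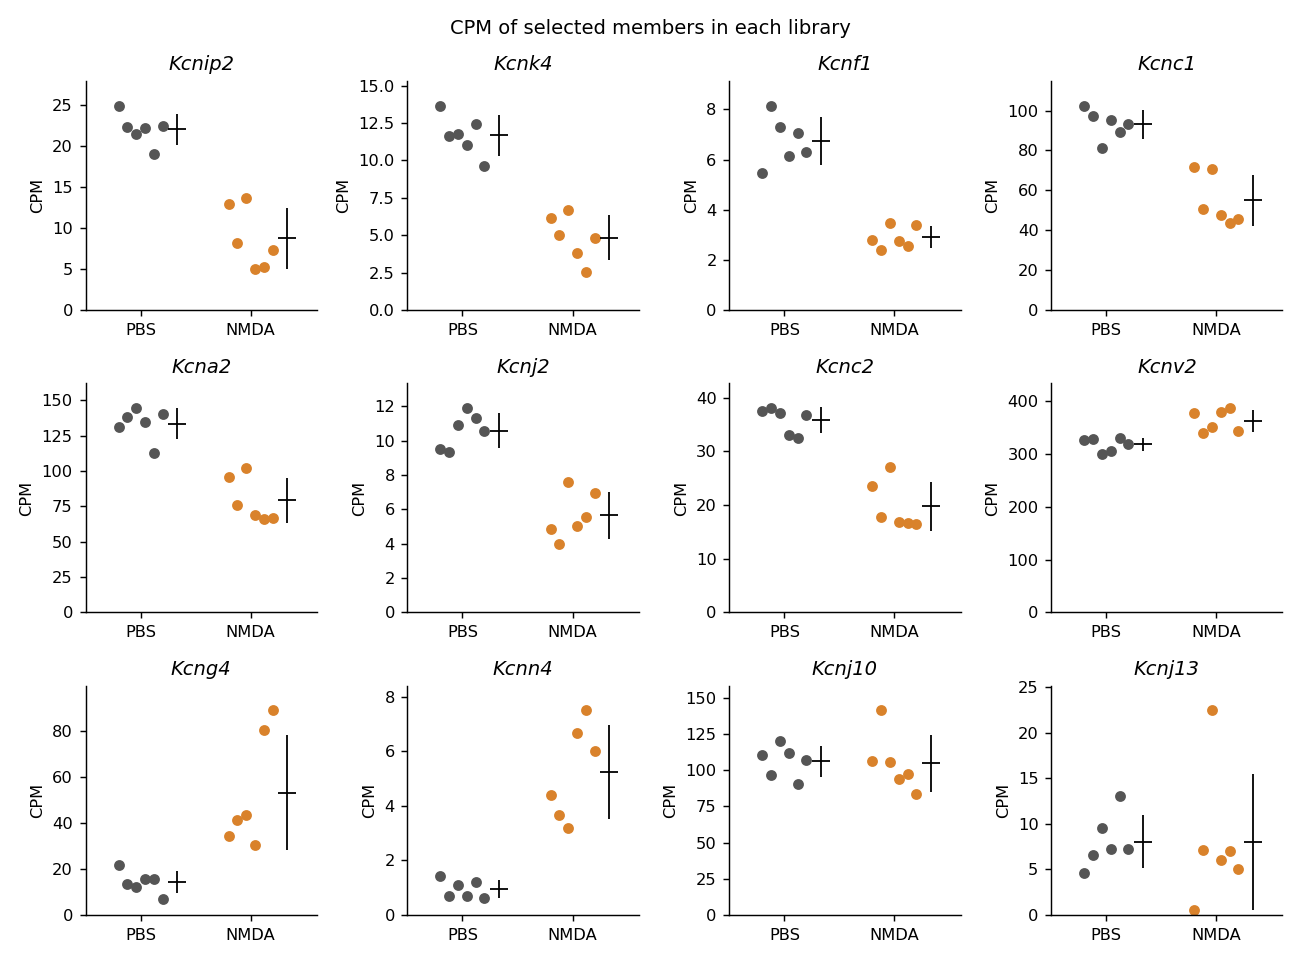
CPM of 12 members in each library (points, linear axes from 0), with mean and SD beside them, for PBS (grey) and NMDA (orange). Kcnip2, Kcnk4, Kcnf1, Kcnc1, Kcnc2, Kcna2 and Kcnj2 are lower and Kcnv2, Kcng4 and Kcnn4 higher in all NMDA libraries, Kcnj10 overlaps, and Kcnj13 is spread from 0.537 to 22.4 CPM within the NMDA group.

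The depth of the falls differed between NMDA rats, and NMDA 1 or NMDA 3 was nearest to PBS in most members. Among the 44 members that fell, the highest NMDA library was NMDA 3 in 22 and NMDA 1 in 14, and the lowest was NMDA 5 in 18, NMDA 4 in 11 and NMDA 6 in 7. The median log2 ratio to the PBS mean over the 44 was -0.41 in NMDA 3 and -0.43 in NMDA 1, and -0.66 in NMDA 2, -0.74 in NMDA 4, -0.75 in NMDA 6 and -0.87 in NMDA 5. The median over the 18 ganglion cell markers was -0.56 in NMDA 3 and -0.65 in NMDA 1, against -1.66 to -2.26 in the other NMDA libraries. Ganglion cell markers summed to 1215 to 1480 CPM with PBS and 445 to 894 CPM with NMDA, and amacrine cell markers, of which 14 of 15 fell, to 2487 to 2632 and 1531 to 2077 CPM. No marker found for these lists was at 0 in all libraries. The part of these cells in the falls was not tested.

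**Figure D4:**
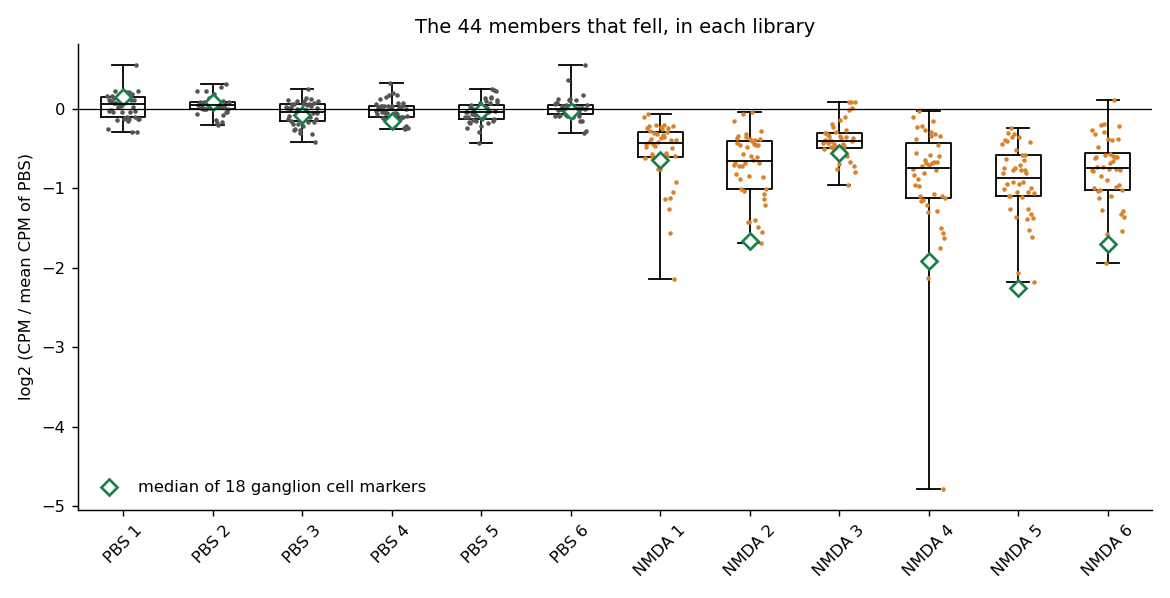
Log2 ratio of CPM to the PBS mean for the 44 members that fell (dots), in each library; boxes give the quartiles, whiskers the full range, and diamonds the median of 18 ganglion cell markers. The boxes of NMDA 1 and NMDA 3 lie nearest to 0, and so do their diamonds, at -0.65 and -0.56.

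Partner genes outside the Kcn names were read from fixed lists, and the shares over all tested genes were 17.5% lower and 20.4% higher. Of 9 tested partner subunit genes 5 fell and none rose. Dpp10 and Dpp6, which encode membrane partners of Kv4 pores, fell by 1.37 and 0.42 (edgeR adjusted p = 0.00296 and 6.8e-05). Amigo1, of a Kv2 partner, fell by 0.20 and Abcc8, the sulphonylurea receptor gene that pairs with Kcnj11, by 0.49. Of 13 genes that cluster Kv1 channels on axons 9 fell and 1 rose. Cntnap2, the Caspr2 gene, fell by 0.61, Adam22, of a receptor beside Kv1 channels, by 0.56 and Dlg2, a scaffold gene, by 0.50, and Dlg1, another scaffold gene, rose by 0.75. Of the hyperpolarization-activated cation channel group, Hcn2 fell by 0.46, Hcn3 by 0.27 and Pex5l, of a trafficking partner, by 0.97. Of 12 genes of G protein and membrane lipid control 5 fell and none rose, with Plcb1, a phospholipase C gene, at -0.69 and Gnb1, a G protein beta gene, at -0.58.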

How the data were processed

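RNA of 12 rat retinas was analysed, 6 with PBS and 6 with NMDA. The deposited table gave whole counts per gene and FPKM per gene, per the file headers. The submitters' processing notes name Bowtie2, RSEM 1.3.1 and DESeq2 1.4.5 without their roles. No source used here gives the genome build, the strandedness of counting or how multiply mapped reads were treated, so genes that overlap others (7 of the 91 members) are uncertain. Positions are those of the table, and RefSeq (GRCr8) served for names and promoter sequences.

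Genes were filtered with filterByExpr (count minimum 10, total minimum 15), scaled by TMM and passed to the robust quasi-likelihood test of edgeR 4.0.16 (two-sided) in R 4.3.3, with group as the only term and Benjamini-Hochberg adjustment over all 16260 genes. Only the edgeR fit was tried on simulated counts, with fewer genes changed than were called in these data. The other steps were not tried this way. CPM relate each count to the TMM-scaled library total. Log2 fold changes are NMDA minus PBS, and their SE is the absolute change over the square root of the test's F statistic. The 95% interval uses the normal distribution, so it is narrower than the test's own degrees of freedom would give. FPKM, used for levels, equalled count over length and library total. Alternatives used DESeq2 1.42.0 and limma 3.58.1, other scaling and filters, FPKM on the log2 scale with pseudocounts 1 and 0.1, and fits without libraries, with a replicate block, or with a pigment epithelium covariate.

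Results of some genes are not reported here. Members and lists were chosen with earlier results of these data known. Named were 8 members in any case, the 12 largest rises and falls past an adjusted p of 0.05 at a mean of at least 1 CPM, the 6 highest by FPKM and up to 2 per class by adjusted p. Of 228 marker and partner symbols 222 were found. Nothing in the labels says that equal replicate numbers mark the same litter or day, and nothing says that rats were handled apart. The p-values set the difference between groups against the spread of these 12 libraries within their groups, and reach no further.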

Additional observations from a re-analysis of the deposited data

Results flagged for a closer look

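Among 35 members picked by the rule, each checked in both groups of 6, 3 libraries stood far from the rest of their group, and chance flags about 1 in 20 groups. Kcnj13 was at 22.4 CPM in NMDA 3, against 0.537 to 7.16 CPM in the other NMDA libraries. Kcnk2 was at 10.6 CPM in PBS 5, against 8.31 to 9.11 CPM in the other PBS libraries. Kcnd3 was at 112 CPM in PBS 1, against 95.7 to 101 CPM in the other PBS libraries.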

How the results depend on the processing

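All 49 called members kept their sign under the 24 alternatives, and 43 kept their call wherever they were tested. The calls of Kcng1, Kcnj5 and Kcnk10 were each lost under 14 of the 24 alternatives. Those of Kcng2, Kcnk1 and Kcnk9 were lost under 11, 7 and 1. The number of members that fell ran from 39 to 48 and was 45 with the DESeq2 Wald test. Leaving out 1 library gave 39 to 48 falls and 5 to 6 rises. With a minimum of 1 CPM in 6 libraries 3 members rose in place of 5, since Kcnk6 and Kcnk13 were then not tested.

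The replicate block gave 41 falls and 5 rises. Same-numbered libraries had correlations of their deviations from -0.19 to 0.15, and 1 of 6 PBS libraries correlated best with its own number, so equal numbers were not taken as pairs. The block brought Kcnh6 past the threshold (-0.24), ended the calls of Kcng1, Kcng2, Kcnj5 and Kcnk10 and changed no other.

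Among the members named by the rule, Kcnj10 and Kcnj13, neither of which passed, changed sign, and the cause was not tested. A further 7 tested members, none of them called, changed sign under 1 to 9 alternatives. Kcnj10 was at 0.0294 with library size only, 0.0154 and 0.0159 with FPKM pseudocounts 1 and 0.1, and up to 0.0384 without 1 library. Kcnj13 was at -0.00415 with DESeq2 size factors, -0.00495 without a filter, -0.0136 with the DESeq2 Wald test, -0.32 with limma voom, -0.28 and -0.48 with FPKM pseudocounts 1 and 0.1, -0.43 with the replicate block and -0.36 without NMDA 1 and NMDA 3. Leaving out 1 library moved Kcnj13 from -0.64 to 0.24 and Kcnj10 from -0.12 to 0.0384. Depth limited the low members, with SE of 0.22 to 0.56 below 1 CPM and 0.04 to 0.33 from 10 CPM on.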
